A study of Mus musculus with 24 samples.

Results

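The choroid plexus of aged mice carrying human ApoE4 was compared with that of mice carrying human ApoE3, all kept on normal chow. The comparison rested on 12 of the 24 arrays of the series, 6 labelled humanized ApoE4-Knockin and 6 labelled humanized ApoE3-Knockin. Every mouse was of the C57BL strain and 78 weeks old, was maintained on the diet labelled ND, and carried a humanized Apoe gene, so no group without a knock-in allele entered. Each group held 3 males, replicates 1 to 3, and 3 females, replicates 4 to 6. The other 12 arrays were from mice of the same genotypes and age on a high-fat diet, labelled HFD. The tissue was fresh-frozen, taken by laser capture microdissection, in which chosen parts of a section are cut out under a microscope, and hybridised to Affymetrix Mouse430A_2 arrays. The sources used here do not say how the captured regions were chosen, whether arrays stand for separate animals, which C57BL substrain was used, or how the knock-in lines were bred and housed. A p-value here covers the spread between arrays, part of which may be technical.

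Members were all probe sets other than controls that the authors' software called Present on at least 6 of the 24 arrays, which left 13936 of 22626 probe sets. Where several named the same gene, the probe set of highest mean stood for it, and 8261 of the 12393 genes on the array were tested. A log2 fold change is a difference of mean log2(signal + 16), ApoE4 minus ApoE3, given with its SE from limma. The adding of 16 understates the changes of dim genes. A gene was called when its Benjamini-Hochberg adjusted p, taken over all 13936 probe sets, was under 0.05, and "rose" and "fell" are used of called genes.

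The choroid plexus is a fold of epithelium over a core of vessels, stroma and macrophages. It secretes cerebrospinal fluid and forms a barrier between blood and brain. Apolipoprotein E carries cholesterol and other lipids between cells of the brain, and the ApoE4 form is the main common genetic risk factor for late-onset Alzheimer's disease. Type I interferons bind a receptor found on nearly all cells and act through transcription factors inside the cell. These bind a short DNA element, the interferon-stimulated response element (ISRE), in front of antiviral genes, and the choroid plexus is a site where such a response has been described in ageing.

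The arrays fitted the tissue and the labelled sex. Xist, which coats the silenced X chromosome, was at 7266.1 to 9370.3 in females and 117.6 to 261.9 in males, and the Y-linked gene Eif2s3y read 0.9 to 19.2 and 415 to 566.3. Ttr, the thyroid hormone carrier that the epithelium secretes in bulk, read 17450 to 21380 (median 18810) in ApoE3 and 13470 to 23400 (median 19970) in ApoE4. The groups also differed in measures that belong to no gene. The share of probe sets called Present was 58.2% ± 1.52 in ApoE4 and 54.8% ± 0.574 in ApoE3 (SD, n = 6, two-sided exact permutation p = 0.00216, the smallest possible with 6 against 6, adjusted p = 0.00758 over 7 measures). The mean log2 signal of the hybridization controls, transcripts normally added in equal amounts, was 11.54 ± 0.14 and 11.88 ± 0.13 (SD, n = 6, exact permutation p = 0.00216, adjusted p = 0.00758), and ApoE4 arrays 3 and 5 were the chow arrays with the lowest. The mean over neuron, myelin and astrocyte genes was 8.18 ± 0.14 in ApoE4 and 8.38 ± 0.12 in ApoE3 on the log2 scale (SD, n = 6, exact permutation p = 0.026, adjusted p = 0.0455). It was taken as a reading of brain tissue beside the plexus, which was not tested, and the markers Gfap, Olig2 and Rbfox3 were Present on no array. The median signal was 152 ± 8.23 in ApoE4 and 168 ± 9.14 in ApoE3 (SD, n = 6, exact permutation p = 0.0152, adjusted p = 0.0354). The log2 ratio of the 3′ to the 5′ probe sets of Actb, which reads RNA integrity, was 1.68 ± 0.20 and 1.98 ± 0.24 (SD, n = 6, exact permutation p = 0.0455, adjusted p = 0.0636). The mean over epithelial markers was 12.60 ± 0.078 and 12.61 ± 0.046 (SD, n = 6, exact permutation p = 0.777, adjusted p = 0.777). Of these measures, the hybridization controls, the neuron, myelin and astrocyte mean and the Actb ratio were each held as a covariate in another fit. The Present share, the median signal and the epithelial mean were held in none. The part of the array measures in the results below was not tested further.

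In ApoE4, 341 genes rose, 4.13% of those tested, and 469 fell, 5.68%, together 810 genes or 9.81%. Most changes were small: the median called gene differed 1.31-fold, 172 differed at least 1.5-fold, and 22 at least 2-fold, of which 16 rose and 6 fell. All 6 ApoE4 arrays lay above all 6 ApoE3 arrays for 114 genes, 1.38%, and below them for 142, 1.72%. Over probe sets the count was 1428 or 10.2%, with 619 higher and 809 lower. The balance of rises and falls depended on the scaling, since quantile normalization between arrays gave 661 higher and 500 lower. It also moved with covariates and single arrays: 307 and 288 were called with the brain marker mean held as a covariate (the brain marker covariate), 875 and 1433 with the hybridization controls held likewise, 434 and 597 with the Actb ratio, and 364 and 436 without ApoE4 array 4. Of the 106 called genes among the 129 named by the rule in the methods, 33 were called in each of the 26 other fits listed there, Cd163 and Clec4d were called in the 25 of them that tested these genes, and for a gene below that was lost in 10 or more of them the number of fits that kept it is given.

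**Figure D1:**
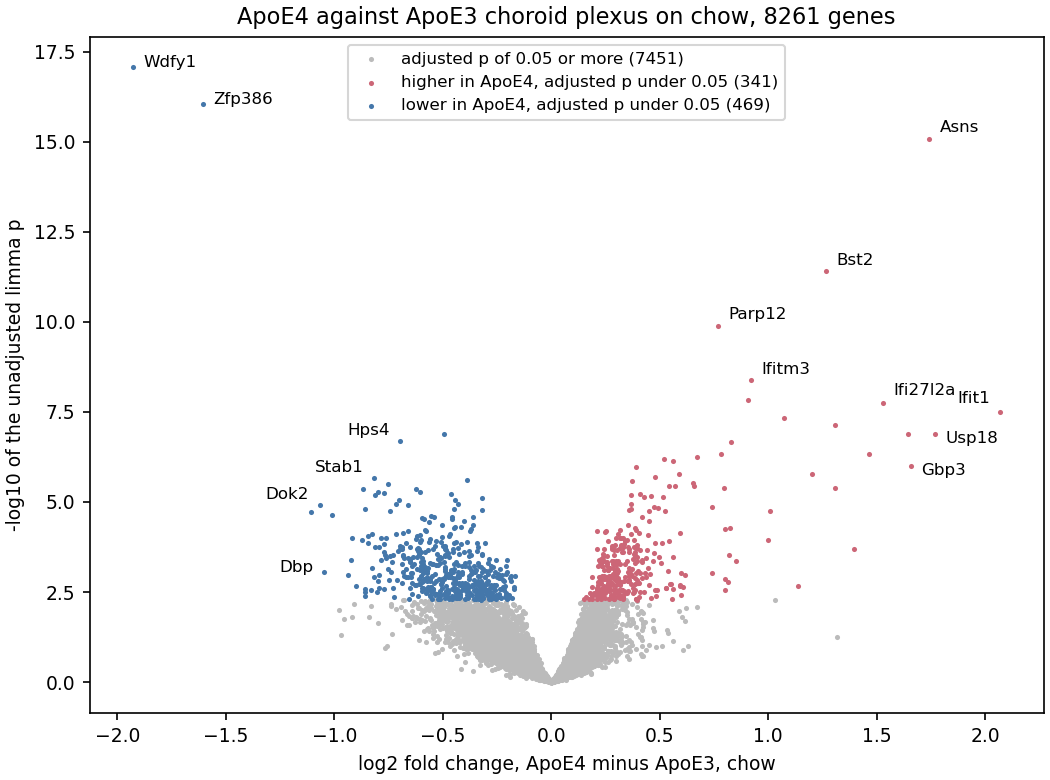
Each point is 1 of the 8261 genes on chow, with its log2 fold change, ApoE4 minus ApoE3, on the x axis and the -log10 of its unadjusted limma p on the y axis. Red points (341) rose and blue points (469) fell at an adjusted p under 0.05; Wdfy1 and Zfp386 lie far to the upper left and Asns and the interferon-induced genes to the upper right.

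Interferon effector genes led the rises in ApoE4, and no other of the 49 lists held as many rises. Of 33 tested effectors of that response, 18 rose and 1 fell, against 4.13% and 5.68% of all genes, and 14 had every ApoE4 array above every ApoE3 array. The median log2 fold change of the list was 0.59, against -0.021 over all genes. The 49 lists were chosen with earlier results of these data known, so the rank, counts and median of this list are descriptions. Ifit1, which binds viral RNA that lacks the host's cap, read 385 to 828 (median 604) in ApoE3 and 1543 to 3968 (median 2376) in ApoE4. The groups did not overlap, and Ifit1 rose by 2.07 ± 0.24 (4.2-fold, adjusted p = 3.07e-05). Ifit3, its partner in the same complex, read 533 to 1195 (median 643) in ApoE3 and 1100 to 3882 (median 1689) in ApoE4. Its groups overlapped, and its rise was 1.40 ± 0.31 (adjusted p = 0.00906). Oasl2, of the oligoadenylate synthetase family, read 130.4 to 357 (median 200.5) and 485 to 936 (median 681), with no overlap (1.64 ± 0.22).

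Membrane proteins and enzymes of the response rose as clearly. Bst2, or tetherin, which holds budding virus on the cell surface, read 1578 to 2165 (median 1986) in ApoE3 and 4219 to 5162 (median 4534) in ApoE4. The dimmest ApoE4 array lay far above the brightest ApoE3 array, and the rise was 1.27 ± 0.11 (adjusted p = 7.83e-09). Ifitm3, which blocks entry of virus from endosomes, read 2805 to 4142 (median 3372) and 5248 to 7716 (median 6564) (0.92 ± 0.11). Ifi27l2a read 969 to 1650 (median 1140) and 3005 to 4042 (median 3455) (1.53 ± 0.18), and the receptor transporter gene Rtp4 read 865 to 1790 (median 1231) and 2495 to 4105 (median 3477) (1.47 ± 0.20, with its other probe set also called higher). None of these 4 genes had overlapping groups. Ddx60, a helicase, was dim, at 67.8 to 117 (median 96.5) in ApoE3, where it was Absent on 4 arrays, and 153 to 463 (median 236) in ApoE4 (1.31 ± 0.22). Parp12 read 723 to 889.5 (median 842) and 1232 to 1554 (median 1384), a smaller rise of 0.77 ± 0.076 with a narrow spread (adjusted p = 1.97e-07). Usp18, the protease that removes ISG15 from proteins and dampens the interferon receptor, was the 1 of 4 tested genes of the ISG15 system that rose, by 1.77 ± 0.23 from 397 to 710 (median 471) to 1155 to 2680 (median 1766), with no overlap. Sp110, a nuclear body protein, was the member that fell (-0.48 ± 0.13, adjusted p = 0.0214), and quantile normalization ended that call. Fits with brain markers or hybridization controls as a covariate, without the 4 arrays of lowest control signal, or without any 1 array called between 16 and 19 effectors higher.

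**Figure D2:**
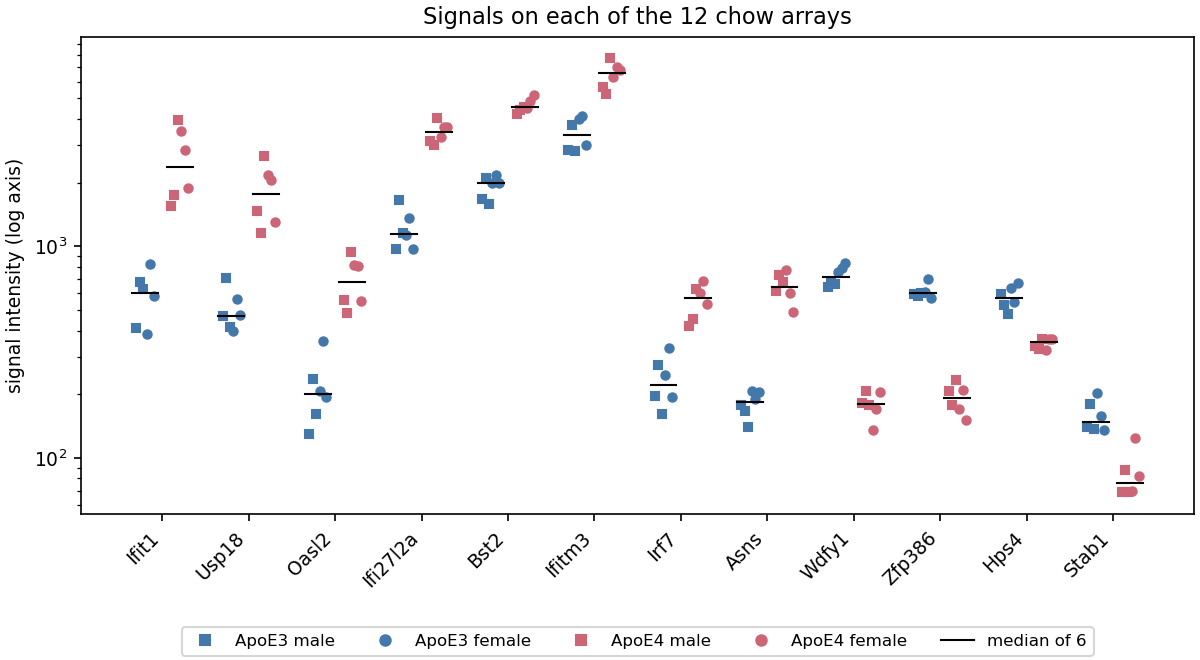
Signal intensity (log axis) of 12 genes on each of the 12 chow arrays, ApoE3 in blue and ApoE4 in red, males as squares and females as circles, with the median of 6 as a black bar. For every gene shown the ApoE4 arrays lie entirely above or entirely below the ApoE3 arrays, in males and in females.

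The promoters of the largest rises are printed to show how far the letters of the ISRE recur in them. The windows run from 250 bases before to 50 after the start of the gene in RefSeq (build GRCm38.p6), 5′ to 3′ on the gene's strand, and capitals mark the ISRE letters searched, GAAA, any 2 bases (NN) and GAAA again, on either strand, where matches may overlap each other. The 4 below are those of Ifit1 (chr19:34640639-34640938, plus strand), Gbp3 (chr3:142559794-142560093, plus strand), Ddx60 (chr8:61927837-61928136, plus strand) and Bst2 (chr8:71537423-71537722, minus strand).
Ifit1: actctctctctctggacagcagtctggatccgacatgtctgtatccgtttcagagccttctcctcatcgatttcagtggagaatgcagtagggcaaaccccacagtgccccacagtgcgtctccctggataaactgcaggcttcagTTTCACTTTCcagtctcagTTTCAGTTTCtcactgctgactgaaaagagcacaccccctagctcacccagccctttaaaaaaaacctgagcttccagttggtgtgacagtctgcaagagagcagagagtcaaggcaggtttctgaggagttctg
Gbp3: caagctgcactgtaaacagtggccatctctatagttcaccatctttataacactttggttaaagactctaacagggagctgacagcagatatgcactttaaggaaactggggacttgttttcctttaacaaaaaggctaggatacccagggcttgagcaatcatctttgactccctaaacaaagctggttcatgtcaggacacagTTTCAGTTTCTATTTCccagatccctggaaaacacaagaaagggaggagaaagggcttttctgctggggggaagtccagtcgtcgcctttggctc
Ddx60: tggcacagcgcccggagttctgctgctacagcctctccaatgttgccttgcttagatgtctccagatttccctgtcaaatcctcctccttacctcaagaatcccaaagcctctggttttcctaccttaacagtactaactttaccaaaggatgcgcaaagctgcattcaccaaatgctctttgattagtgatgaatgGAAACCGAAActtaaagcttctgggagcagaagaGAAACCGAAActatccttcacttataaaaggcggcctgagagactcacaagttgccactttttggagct
Bst2: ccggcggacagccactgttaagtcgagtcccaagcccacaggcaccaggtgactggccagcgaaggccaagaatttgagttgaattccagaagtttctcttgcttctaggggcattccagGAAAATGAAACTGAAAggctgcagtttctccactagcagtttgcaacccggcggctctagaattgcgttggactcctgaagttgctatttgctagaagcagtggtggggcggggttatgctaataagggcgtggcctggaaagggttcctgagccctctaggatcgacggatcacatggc

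Ifit1, Gbp3, Ifit3, Ddx60 and Bst2 each held 2 matches, and these 5 were among the 8 of the 12 largest rises that had a window. Of 25 type I effectors with a window, 13 held a match, 52.0%, against 211 of 6753 tested genes, 3.12%, and 943 of 27025 genes with a window, 3.49%. Among all genes that rose, 29 of 294 held one, 9.86%, and among those that fell 8 of 368, 2.17%. Oasl2, Irf7 and Parp12 rose without a match in their window. The share of the effectors counts list members whether or not they were called, so it describes the list and not the change in ApoE4. A match is a run of letters and not a site of binding.

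Upstream and downstream parts of the pathway moved less evenly. Of 9 tested nucleic acid sensors and adaptors, 4 rose and 0 fell. Ifih1, or MDA5, which detects long double-stranded RNA in the cytosol, read 857 to 1094 (median 968) in ApoE3 and 1351 to 1857 (median 1475) in ApoE4, with no overlap (0.65 ± 0.11). Trim25, a ligase that activates the sensor RIG-I, rose by 0.54 ± 0.093 and Eif2ak2, the kinase PKR, by 0.51 ± 0.12, both without overlap. Tlr3, the endosomal sensor of double-stranded RNA, rose by 0.39 ± 0.081, and its groups overlapped.

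Among 18 receptors, kinases and factors of interferon signalling, 3 rose and 3 fell. Irf7, the factor that amplifies type I interferon production, read 162 to 330.1 (median 221) in ApoE3 and 419 to 684 (median 567) in ApoE4, with no overlap (1.20 ± 0.19, adjusted p = 0.000561). Irf9, a DNA-binding factor of type I interferon signalling, rose by 0.44 ± 0.12 with overlapping groups. Its change was 0.092 ± 0.15 in males and 0.78 ± 0.15 in females, a difference that was not called (adjusted p = 0.692). The interferon gamma receptor chain Ifngr1 fell from 474 to 689 (median 613) to 236 to 577 (median 347) (-0.70 ± 0.16), and Irf8 and Irf1, factors of myeloid cells and of the gamma response, fell by 0.50 on the log2 scale. The type I receptor chains Ifnar1 and Ifnar2, named after their values were seen, were at -0.15 ± 0.084 and -0.022 ± 0.09 and were not called. With the brain marker covariate 0 members of this list fell and 2 rose, and without ApoE4 array 4 it was 1 and 1, while without ApoE4 array 2 only 1 fell. With the hybridization control covariate, or without the 4 arrays of lowest control signal, 1 rose.

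Of 9 interferon-induced GTPases, which attack the vacuoles of intracellular microbes, 4 rose and 0 fell. Gbp3 read 232 to 802 (median 327) in ApoE3 and 812 to 1695 (median 1220) in ApoE4 and did not overlap (1.66 ± 0.24). Irgm1, Gbp7 and Irgm2 rose by 0.83 ± 0.17, 0.82 ± 0.19 and 0.74 ± 0.20 with overlapping groups, and another probe set of Gbp7 was at -0.11. Without the 4 arrays of lowest control signal, which were ApoE4 arrays 3 and 5 on chow and 2 and 5 on the high-fat diet, 2 of the 9 rose. In MHC class I presentation 2 of 13 rose: B2m, the light chain of the complex, from 4681 to 8412 (median 5480) to 7042 to 9112 (median 8292) (0.47 ± 0.11), and the proteasome activator subunit Psme1 (0.22 ± 0.07, kept in 10 of 26 fits). The heavy chains H2-K1 and H2-D1, named after their values were seen, were at 0.18 ± 0.094 and 0.17 ± 0.15 and were not called. Of 7 genes of MHC class II presentation limma called none (1 at an unadjusted p under 0.05), and H2-Aa was at -0.067 ± 0.16 (adjusted p = 0.817, unadjusted p = 0.674).

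**Figure D3:**
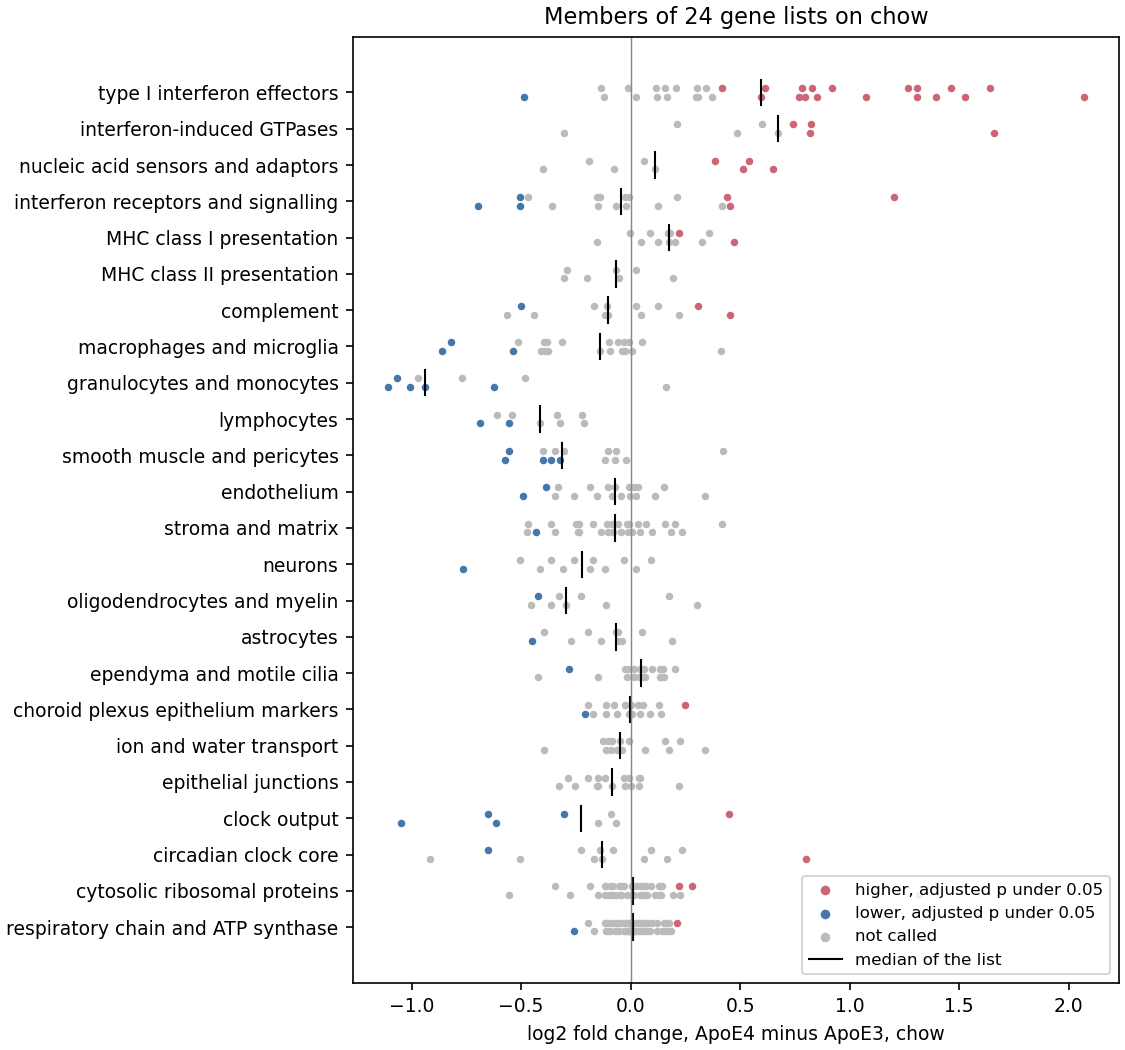
Each row is 1 of 24 gene lists and each point a tested member at its log2 fold change on chow, ApoE4 minus ApoE3, red where it rose, blue where it fell and grey where it was not called, with the list median as a black bar. The type I interferon effectors and GTPases lie to the right (medians 0.59 and 0.67), granulocyte and monocyte genes to the left (-0.94), and epithelial, ribosomal and respiratory genes near 0.

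Asns stood apart from its pathway. It encodes asparagine synthetase, a textbook target of the factor ATF4 when amino acids are scarce. It read 139.8 to 207 (median 184) in ApoE3, where it was Absent on all 6 arrays, and 487 to 776 (median 645) in ApoE4, where it was Absent on none. The groups did not overlap, and the rise was at least 3.35-fold, the fitted fold itself, given as a bound because an Absent reading is only an upper limit (adjusted p = 3.79e-12). Readings below the lowest signal called Present on an array were raised to it for such bounds, which touched none of Asns and C1qa. The other probe set of Asns rose by 2.75 on the log2 scale. On the high-fat diet, in a fit of those 12 arrays alone, the change was 1.78 ± 0.089 (adjusted p = 1.52e-09). Of the 24 tested genes of the amino acid response, Cebpg, a partner of ATF4, was the other that rose (0.24 ± 0.059), and none fell. Atf4 itself, with Ddit3, Chac1 and Trib3, all named after their values were seen, was not called: Atf4 was at -0.49 ± 0.19, Chac1 at -0.31 ± 0.15, Trib3 at -0.16 ± 0.18 and Ddit3 at 0.055 ± 0.15.

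The promoter of Asns is shown because it holds the letters of the amino acid response element, TGATGNAA, searched on both strands (chr6:7693160-7693459, minus strand, GRCm38.p6, RefSeq; capitals mark the match, 23 bases before the start).
Asns: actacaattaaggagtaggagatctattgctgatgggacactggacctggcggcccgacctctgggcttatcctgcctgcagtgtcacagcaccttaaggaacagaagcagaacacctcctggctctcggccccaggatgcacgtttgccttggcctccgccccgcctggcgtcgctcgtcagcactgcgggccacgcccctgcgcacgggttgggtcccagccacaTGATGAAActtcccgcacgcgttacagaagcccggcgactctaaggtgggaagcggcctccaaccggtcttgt
Of tested genes with a window 145 held this element, 2.15%, and of the 21 amino acid response genes with a window 6 did, 28.6%.

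The falls of smallest p belonged to genes unrelated to interferon effectors. Wdfy1, an adaptor of endosomal Toll-like receptors, read 645 to 835 (median 712) in ApoE3 and 135 to 206 (median 180.4) in ApoE4. The groups lay far apart, and the log2 fold change was -1.93 ± 0.095 (3.8-fold, adjusted p = 1.21e-13), with -1.20 at its other probe set. Zfp386, a KRAB zinc finger gene, read 571 to 701 (median 598) and 151 to 233 (median 192), with no overlap (-1.61 ± 0.087, and -0.93 at its other probe set). Wdfy1 was at -1.72 ± 0.13 in males, -2.13 ± 0.13 in females and -1.85 ± 0.09 on the high-fat diet, and Zfp386 at -1.47 ± 0.12, -1.74 ± 0.12 and -1.49 ± 0.082. Hps4, which serves the making of lysosome-related organelles and was named after its values were seen, fell from 479 to 671 (median 570) to 322 to 366 (median 352) without overlap (-0.69 ± 0.10, adjusted p = 0.000121).

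The 10 annotated neighbours on each side of Apoe on chromosome 7, the locus where the genotypes differ by design, held 8 tested genes. Limma called 0 of them (2 had an unadjusted p under 0.05), and they ran from -0.33 ± 0.15 in Bcam, a laminin receptor, to 0.14 ± 0.086 in Clptm1 (adjusted p = 0.14 and 0.282). Tomm40, the mitochondrial import pore next to Apoe, was at -0.023 ± 0.11. Within 100 genes on each side, 31 were tested and limma called 0, with 7 at an unadjusted p under 0.05. Over all 8261 genes 9.81% were called and 2263 had an unadjusted p under 0.05. Whether the genes near Apoe differ from that share was not tested. The murine Apoe probe set read 2.0 to 7.0 in ApoE3 and 1.9 to 5.1 in ApoE4 and was Absent on all 12 arrays. It was not tested and says nothing of the human transcript, so the genotype labels were not checked by it. Among 4 tested genes known to differ between C57BL substrains, Crb1, which carries a retinal mutation in the 6N line, fell (-0.68 ± 0.16), as did Wdfy1. Nnt, deleted in part in the 6J line, was at -0.15 ± 0.10 and was not called (adjusted p = 0.352). The substrain of each line is not given, and its part in these differences was not tested. The share of genes called ran from 5.45% on chromosome 18 to 12.5% on chromosome 7, which holds Apoe, and 12.1% on chromosome 2.

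The granulocyte and monocyte list had the lowest median log2 fold change of the 49 lists. Of 9 tested granulocyte and monocyte genes, 5 fell and 0 rose, with a median of -0.94. Some of these genes were put on the list with earlier results of these data known, so the count, the median and its rank are descriptions. Their signals were dim. Dok2, an inhibitory adaptor of blood cells, read 131 to 226 (median 158) in ApoE3 and 49.2 to 144 (median 60.7) in ApoE4, overlapping through 1 ApoE4 array (-1.07 ± 0.20). The chemokine receptor-like gene Gpr33 read 73.8 to 130.3 (median 110.4) and 16 to 83.8 (median 42.4), Absent on 4 ApoE4 arrays (-1.11 ± 0.21). Clec4d, a lectin receptor for microbial glycolipid, was Absent on all 6 ApoE4 arrays, at 21.6 to 67.6 (median 37.9), and lay below every ApoE3 array, at 86.9 to 109 (median 98.2). It was at least 2.01-fold lower. Cd300lf (-0.94 ± 0.25) and the neutrophil granule gene Ngp (-0.62 ± 0.18) fell as well. The median of the list was -1.23 in males and -0.49 in females, and the sexes were not tested against each other as a list. The summed signal of the list ran from 586 to 1237 in ApoE4 and from 889 to 2186 in ApoE3, and Csf3r, Mmp9, Camp and Clec4e were Present on no array and not tested. In the fits with quantile normalization or the brain marker mean, or without ApoE3 array 1 or ApoE4 array 1 or 4, 3 fell. In bulk tissue, fewer cells of a type and less RNA per cell cannot be told apart.

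Resident macrophages showed smaller changes. Of 21 macrophage and microglia genes 3 fell and 0 rose (median -0.14). Stab1, a scavenger receptor of perivascular macrophages, read 135 to 202 (median 149) in ApoE3 and 68.8 to 124 (median 76.2) in ApoE4, with no overlap (-0.82 ± 0.14, adjusted p = 0.000659). Cd163, the haemoglobin scavenger, lay below ApoE3 on every ApoE4 array (12.9 to 31.2 (median 16.8) against 35.1 to 60.6 (median 46.6)) but was Absent on all 12, so no fold is given. The leukocyte integrin Itgb2 fell by 0.53 ± 0.14. Csf1r, the receptor that macrophages need to survive, named after its value was seen, was at -0.0072 ± 0.10. The number of members that fell was 8 with the hybridization control covariate and 8 without the 4 arrays of lowest control signal, and 5, 7 and 5 without ApoE4 array 3, 5 or 6. The list's summed signal was 5726 to 8931 in ApoE4 and 6139 to 9912 in ApoE3. Of 9 lymphocyte genes 2 fell, the killer cell receptor Klrd1 (-0.69 ± 0.16) and the B cell gene Ms4a1 (-0.55 ± 0.17, kept in 15 fits). Of 12 genes of lipid-laden phagocytes 1 fell, Cd9 (-0.22 ± 0.064, kept in 16 fits). The T cell chains Cd3d and Cd3e and the B cell chain Cd79a were Present on no array.

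Complement genes did not move together: of 13, C1qa and C1ra (kept in 11 fits) rose and the C3a receptor gene C3ar1 fell (-0.50 ± 0.15, kept in 15 fits). C1qa, which starts the classical pathway, was Absent on all 6 ApoE3 arrays, at 177 to 378 (median 315), and Absent on none in ApoE4, at 305 to 505 (median 385). The groups overlapped, and the difference was at least 1.37-fold, again the fitted fold (adjusted p = 0.021). The call of C1qa was kept in 19 of 26 fits. No complement gene rose in the fit of the 12 chow arrays alone, with the hybridization control covariate, or without the 4 arrays of lowest control signal. The partner chains C1qb and C1qc were at -0.56 ± 0.25 and 0.22 ± 0.16 and were not called, and the 3 probe sets of C1qb ran from -0.56 to 0.16. Among 17 cytokine and NF-kB genes the chemokine Ccl12 rose, from 10.6 to 83.6 (median 42.9) in ApoE3, Absent on 6 arrays, to 49.5 to 91.5 (median 83.6) in ApoE4, with overlap and at least 1.75-fold. The NF-kB subunit Rela fell (-0.31 ± 0.082).

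In the vessel wall, 5 of 14 smooth muscle and pericyte genes fell and 0 rose (median -0.31). Tpm2, a tropomyosin of the contractile filament, read 533 to 689.9 (median 579.5) in ApoE3 and 287 to 485 (median 417) in ApoE4, with no overlap. It fell by 0.55 ± 0.11, and its other 3 probe sets fell too, by 0.52 to 0.77 on the log2 scale. Tagln (-0.57 ± 0.15), the receptor Notch3 (-0.36 ± 0.11), Acta2 (-0.32 ± 0.10, kept in 13 fits) and Des (-0.40 ± 0.13, kept in 9 fits) fell with overlapping groups. The number that fell was 2 with only the 12 chow arrays, 2 with the brain marker mean, 2 without ApoE3 array 4 or ApoE4 array 1, and 3 without ApoE3 array 1 or 6, without ApoE4 array 2, 4 or 6, or after quantile normalization. Of 19 endothelial genes 2 fell, Robo4 (-0.49 ± 0.14) and Egfl7 (-0.39 ± 0.12, kept in 15 fits), and of 30 stroma and matrix genes 1 did, the laminin chain Lamb2 (-0.43 ± 0.13, kept in 15 fits).

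Genes listed for neurons, myelin and astrocytes are counted here beside the 5.68% of all genes that fell. Of 12 neuron, 9 myelin and 11 astrocyte genes 1 each fell, and the medians were -0.22, -0.29 and -0.066. At an unadjusted limma p under 0.05 were 3, 6 and 2 of them, against 2263 of all 8261 genes. In males the neuron and myelin medians were -0.0032 and -0.023, and in females -0.53 and -0.27, and the sexes were not tested against each other as lists. With the hybridization control covariate 4 myelin genes fell, and with the brain marker covariate none did. The latter covariate is the mean of these same neuron, myelin and astrocyte genes, so its fit cannot inform on their calls. The genes that fell in the main fit were the neuron gene Gria2, a glutamate receptor subunit (-0.77 ± 0.18), the myelin list's Sox10, the factor of oligodendrocytes (-0.42 ± 0.13, kept in 15 fits), and the astrocyte gene Mt3, a brain metallothionein (-0.45 ± 0.13). Mbp, a main myelin protein, named after its values were seen, read 1486 to 2260 (median 1961) in ApoE3 and 892 to 2100 (median 1557) in ApoE4, with overlap (-0.29 ± 0.17, not called). The summed neuron signal was 1854 to 3017 in ApoE4 and 2635 to 3901 in ApoE3, and the neuron markers Rbfox3, Syn1 and Camk2a were Present on no array.

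Epithelial markers were called at a share near the 9.81% of all genes, so their count does not set them apart. Of 18 epithelial markers 1 rose, the keratin Krt8 (0.25 ± 0.081, kept in 11 fits), and 1 fell, the copper importer Slc31a1 (-0.21 ± 0.065, kept in 12 fits, and 0.031 at its other probe set). Limma called none of 15 ion and water transport genes, 18 solute and drug transporters and 17 junction genes, of which 3, 2 and 4 had an unadjusted p under 0.05, and 1 of 20 cilia genes fell, Ift140 (-0.28 ± 0.074), a part of the transport train inside cilia. With the hybridization control covariate 3 epithelial markers and 3 ion transport genes rose, and 1 ion transport and 2 junction genes fell. The cotransporter Slc12a2, which moves ions in secreting fluid, read 12890 to 16280 (median 14270) and 11820 to 15280 (median 13730) (-0.11 ± 0.07). Other values near 0 were those of the folate receptor Folr1 (0.13 ± 0.065), the water channel Aqp1 (-0.074 ± 0.093), the factor Otx2 (0.14 ± 0.083) and the ageing-related protein Kl (-0.17 ± 0.08), named after their values were seen. Cldn15, a claudin on none of these lists, was among the 12 largest falls, from 94.6 to 145 (median 110.5) to 30 to 84.1 (median 62.5) with no overlap (-0.85 ± 0.19).

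Genes of amyloid and lipid handling are counted here beside the 4.13% of all genes that rose and the 5.68% that fell. Of 17 genes of amyloid precursor processing, 2 fell and 1 rose. Psenen (-0.32 ± 0.058) and Aph1a (-0.43 ± 0.08), both subunits of gamma-secretase, fell, and the other probe sets of Aph1a, at -0.11 and -0.054, were not called. Sorl1, a receptor that sorts the precursor and binds ApoE, rose by 0.43 ± 0.13 (kept in 14 fits), and was at -0.12 ± 0.13 on the high-fat diet. Of 20 lipid efflux genes, Abca7, a transporter and Alzheimer's risk gene, read 612 to 775 (median 694) in ApoE3 and 397 to 571 (median 511) in ApoE4, with no overlap. It fell by 0.46 ± 0.082 (adjusted p = 0.00121), and Abcg4 fell by 0.42 ± 0.12. Abca1, the exporter that loads ApoE with lipid, and Clu, another lipid carrier, were at 0.088 ± 0.099 and -0.11 ± 0.061, not called and named after their values were seen. Among 14 lipoprotein receptors, Sorl1 rose and Lrp2 and Lrp4 fell, both dim and kept in 9 and 10 fits. Of 27 genes of cholesterol and fatty acid synthesis 1 fell, Lss (kept in 10 fits). Of 22 genes of fatty acid oxidation 2 rose: Etfdh, which passes electrons to the respiratory chain, from 1180 to 1524 (median 1356) to 1553 to 1718 (median 1621) with no overlap (0.28 ± 0.065), and Pdk4, which restrains glucose oxidation (0.40 ± 0.096).

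Clock genes differed with a wide spread inside ApoE4. Of 8 output genes 4 fell and 1 rose, and of 13 core clock genes 1 fell and 1 rose. Dbp, a factor driven directly by the clock, read 3042 to 4169 (median 3692) in ApoE3 and 855 to 3109 (median 1842) in ApoE4. The ApoE3 arrays lay close together, while the ApoE4 arrays spread widely and the highest reached into the ApoE3 range (-1.05 ± 0.27). Tef (-0.65 ± 0.15) and Hlf (-0.30 ± 0.092), of the same family, and the kinase gene Wee1 (-0.61 ± 0.14) fell. Per3, a repressor, fell by 0.65 ± 0.16, and the activator Arntl rose by 0.80 ± 0.22 from 122 to 174 (median 147) to 149 to 439.5 (median 299), also with overlap. Nampt, the enzyme that makes NAD, rose by 0.45 ± 0.087 and was kept in every fit. In the fit of the 12 chow arrays alone 1 output gene fell, and with the hybridization control covariate 2 did. On the high-fat diet Dbp was at -0.17 ± 0.23, Arntl at 0.13 ± 0.18, Wee1 at 0.18 ± 0.14 and Hlf at -0.018 ± 0.096, none called there, and none of these 4 diet differences was called (lowest adjusted p = 0.212). The hour at which tissue was taken is not given in the sources used here, and its part was not tested.

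**Figure D4:**
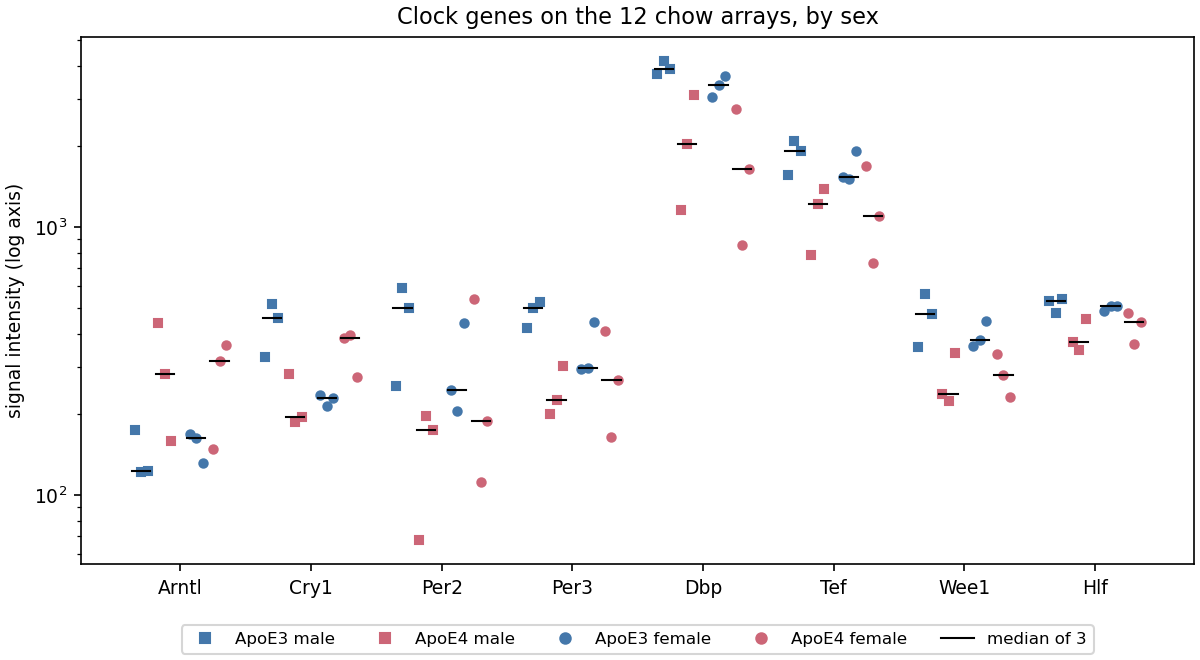
Signal intensity (log axis) of 8 clock genes on the 12 chow arrays, males as squares and females as circles, ApoE3 in blue and ApoE4 in red, with the median of 3 as a black bar. ApoE4 arrays spread more widely than ApoE3 arrays for Arntl and Dbp, and Cry1 lies lower in ApoE4 males and higher in ApoE4 females than in ApoE3.

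Some stress genes moved in small steps. Of 13 glucocorticoid targets 3 fell and 1 rose, and of 20 metallothionein, zinc and copper genes 4 fell. Mt2 read 1321 to 1863 (median 1596) in ApoE3 and 923 to 1469 (median 1135) in ApoE4, with overlap (-0.47 ± 0.11), and Mt1 (-0.38 ± 0.12, kept in 13 fits) and the kinase gene Sgk1 (-0.22 ± 0.065, kept in 14 fits) fell too. With the brain marker covariate, of which Mt3 is itself a part, 0 members of either list fell, and without ApoE3 array 1 only 1 of each did. With the hybridization control covariate 0 glucocorticoid targets and 1 metal gene fell. Without ApoE3 array 2, 3 or 6 or ApoE4 array 1 or 5, 1 glucocorticoid target fell. Without any of the arrays other than ApoE3 array 3 and ApoE4 arrays 4 and 6, at most 2 metal genes fell. Of 14 immediate early genes 4 fell, among them Ccn1, with no overlap (-0.59 ± 0.15), Ier3 (-0.49 ± 0.11) and Klf6 (-0.48 ± 0.11), and with the brain marker covariate 0 fell. Of 19 cytosolic heat shock genes 4 rose and 2 fell. The chaperone Hspa4 fell by 0.86 ± 0.25 (kept in 16 fits), while its other probe sets were at -0.11 and 0.36 and not called, and Hspb1, Hspa4l and Dnajb2 rose by 0.24 to 0.34 (kept in 12, 16 and 8 fits). No heat shock gene rose after quantile normalization, with the brain marker covariate, or without ApoE3 array 2 or ApoE4 array 1, 2 or 4, and 1 or 2 did without ApoE3 array 1, 3, 4 or 5 or ApoE4 array 3, without the 4 arrays of lowest control signal or in the fit of the 12 chow arrays.

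Housekeeping systems varied in the share of genes called, which was 9.81% over all genes. Of 43 cytosolic ribosomal proteins 2 rose, Rplp0 (0.28 ± 0.07) and Rpsa (0.22 ± 0.067), and 0 fell. Of 56 genes of the respiratory chain 1 rose, Uqcrc2 (0.21 ± 0.066, kept in 15 fits), and 1 fell, Ndufc1 (-0.26 ± 0.064). In the proteasome 2 of 31 rose and 3 fell, and without ApoE3 array 3 or ApoE4 array 2 none fell, without ApoE3 array 2 or 4 or ApoE4 array 3 or 4 only 1. None rose without ApoE3 array 1 or 5 or ApoE4 array 1, 2 or 4, after quantile normalization, with the brain marker covariate or in the fit of the 12 chow arrays, and 5 rose without ApoE4 array 6. Of 26 genes of the unfolded protein response Pdia6, a disulfide isomerase, rose from 2104 to 3616 (median 2840) to 3802 to 4488 (median 4088) with no overlap (0.55 ± 0.12), and its other probe set was at -0.021. Ero1a, the oxidase that works with such isomerases, fell (-0.19 ± 0.052). Of 43 splicing factors 1 rose, Hnrnpc (kept in 15 fits), and of 37 lysosomal genes 1 fell, Idua (-0.47 ± 0.13). With the hybridization control covariate 8 respiratory, 7 ribosomal and 5 lysosomal genes rose, and without ApoE4 array 5 it was 4, 3 and 1. Limma called none of 14 genes of iron handling and 28 of oxidative stress defence (4 and 5 at an unadjusted p under 0.05), where Fth1, the ferritin heavy chain, was at -0.13 ± 0.048 and Gpx4 at 0.0041 ± 0.088. In insulin and IGF signalling the substrate Irs1 rose without overlap (0.26 ± 0.072) and the dim receptor gene Insr fell (-0.61 ± 0.17), 2 of 24 genes. Of 18 cell cycle genes 1 rose, the tumour suppressor Rb1 (0.38 ± 0.091), and none of 6 long noncoding RNAs was called (1 at an unadjusted p under 0.05), with Gas5 at 0.16 ± 0.071.

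Males and females were compared as a difference of their genotype effects, each from 3 against 3 arrays. The fit called 2 of 8261 genes, 0.0242%, and 481 had an unadjusted p under 0.05. Tcl1b3, of a family of kinase co-activators, read 2026, 2195 and 2258 in ApoE3 males and 728, 764 and 878 in ApoE4 males, against 1122, 1050 and 1105 and 690.2, 1180 and 933 in females. The males separated by genotype (-1.44 ± 0.14), the females overlapped (-0.25 ± 0.14), and the female minus male difference was 1.18 ± 0.20 (adjusted p = 0.0372). Cry1, a core repressor of the clock, read 327, 517 and 459 in ApoE3 males and 282, 187 and 196 in ApoE4 males, and 236, 215 and 230 and 386, 395 and 275 in females. It was lower in ApoE4 in males (-0.92 ± 0.18) and higher in females (0.58 ± 0.18), a difference of 1.50 ± 0.26 (adjusted p = 0.0372). No gene was called in the fit of the 12 chow arrays alone or without the 4 arrays of lowest control signal. Within males alone 161 genes rose and 191 fell, and within females 25 and 14, but these counts do not test whether the sexes differ. The interferon effectors had medians of 0.54 in males and 0.69 in females. Ifit1 was at 1.95 ± 0.37 and 2.20 ± 0.37, and Bst2 at 1.30 ± 0.15 and 1.23 ± 0.15, with adjusted p of 0.953 and 0.971 for their differences.

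The high-fat diet arrays, which are other samples of the same genotypes, gave the chow calls a further reading. Their array measures also differed by genotype. The median signal was 141.45 to 159.7 in ApoE4 and 167.6 to 179.2 in ApoE3, and the brain marker mean 8.05 to 8.40 and 8.43 to 8.62. The Present share was 57.2% to 60.5% and 52.9% to 58.1%, and the hybridization control mean 10.98 to 11.93 and 11.71 to 11.93. The part of these measures in the calls shared by the diets was not tested. Fitted on its own 12 arrays, chow called 496 genes, 6.00%, and the high-fat diet 2217, 26.8%. Of the 496, 310 were called on the high-fat diet in the same direction and 0 in the other, which is 62.5% of the chow genes and 14.0% of the high-fat diet genes. The sign was the same for 483 of the 496, 97.4%, and for 72.6% of the genes not called on chow. Ifit1, Asns and Wdfy1 were at 2.66 ± 0.18, 1.78 ± 0.089 and -1.85 ± 0.09. Genes called on chow with a high-fat diet value near 0 or of the other sign included Wee1 (-0.61 ± 0.13 and 0.18 ± 0.14). The limma test of the difference between the diets called 0 genes, 0%, with a lowest adjusted p of 0.187, while 817 genes had an unadjusted p under 0.05, so no chow change was shown to be particular to chow. The smallest p of that test belonged to Neat1, a nuclear noncoding RNA, at 0.062 ± 0.15 on chow and -1.05 ± 0.12 on the high-fat diet, followed by Npepps and Ttc14.

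**Figure D5:**
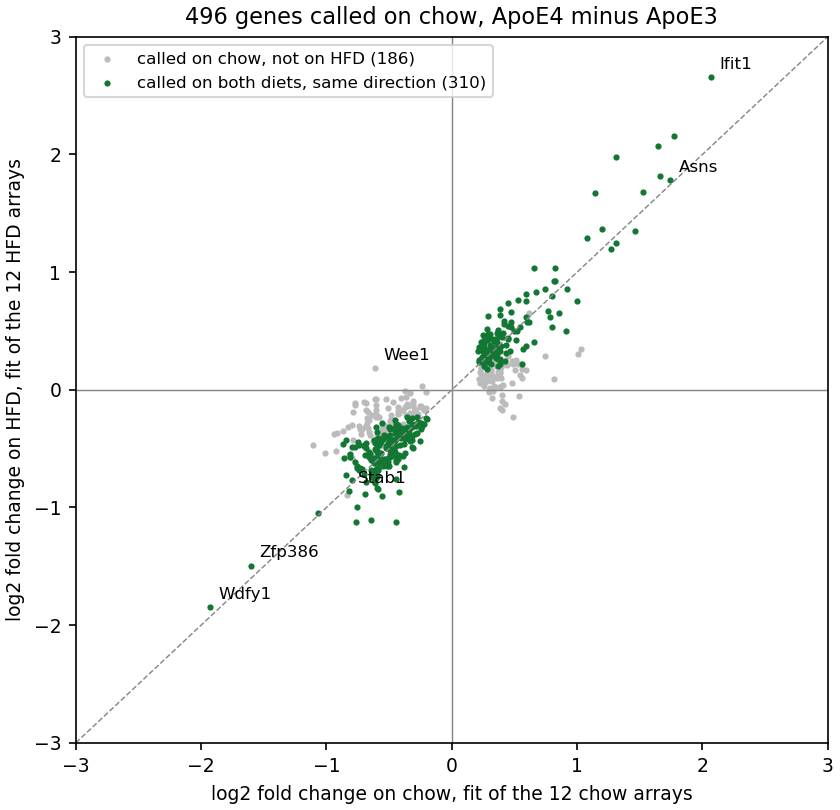
Each point is 1 of the 496 genes called on chow in the fit of its 12 arrays, with the log2 fold change on chow on the x axis and that on the high-fat diet (HFD), from a fit of the other 12 arrays, on the y axis. Green points (310) were called on both diets in the same direction, most of the 496 lie in the quadrants of equal sign, and Wee1 lies in another.

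Probe sets of the same gene gave a further check. Of the called genes, 281 had another tested probe set, and for 55 of them another was called in the same direction, among them Asns, Wdfy1, Zfp386, Rtp4, Trim25 and Tpm2. For 7, Pigx, Rab2a, Pcnx, Dnajc2, Synj2bp, Snd1 and Nsun4, another probe set was called in the other direction, so no direction is given for them. They are named after their values were seen.

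Other large changes belonged to no list. Gm9706, a predicted gene, was Absent on all 6 ApoE3 arrays, at 9.5 to 57.7 (median 49.6), and read 59 to 151 (median 117) in ApoE4, at least 2.15-fold higher (adjusted p = 0.0299). Falls outside the lists included Ehd2, a membrane-shaping ATPase of caveolae (-0.92 ± 0.23), Gnrhr, the receptor of gonadotropin-releasing hormone (-0.87 ± 0.19), Lor, a cornified envelope protein of skin (-0.86 ± 0.27, kept in 13 fits), and Kap, a kidney androgen-regulated protein (-0.81 ± 0.18). Kap read 648 to 796 (median 718) in ApoE3 and 282 to 799 (median 342) in ApoE4, where 1 array reached the ApoE3 range. Ehd2 and Gnrhr were dim, and Gnrhr was Absent on 3 ApoE4 arrays.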

How the data were processed

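Total RNA from choroid plexus was measured on 24 Affymetrix Mouse430A_2 arrays, 12 of them compared here. The deposited intensity values are linear signals made by the authors with GCOS 1.4, per the submitters' processing notes, and signals were equal between the 2 deposited tables in 544560 of 544560 cells. Each array was scaled to a trimmed mean of about 500 (500.173 to 500.194). Detection calls were used as a filter, and 24 columns of detection p-values were not used. Scan dates were not used here, and the number of arrays limits the precision.

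Of 22690 probe sets, 64 controls were left out. Tested probe sets named 1 gene (12733), several (480) or none (723) by the array's annotation, and Entrez ids of 20351 of the 20380 probe sets of 1 gene matched the reference table. Groups came from the labels. Limma 3.58.1 in R 4.3.3 fitted log2(signal + 16) on all 24 arrays with group means and sex, empirical Bayes with trend and robust estimation, two-sided, and was tested on simulated data. P-values were adjusted by Benjamini-Hochberg over 13936 probe sets. The members and the 49 gene lists were chosen with earlier results of these data known.

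Named genes were the 12 largest rises and falls that were called and Present throughout 1 group, up to 4 called members of smallest p in each list or else its brightest, 10 fixed genes (Apoe, Ttr, Asns, Wdfy1, Zfp386, Irf7, C1qa, C1qb, C1qc, Trem2), the leading sex and diet differences, and neighbours of Apoe. Others are marked as named after their values were seen, or stand in a count of members called. Trem2 was Absent at both probe sets and not tested.

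The 26 other fits used quantile normalization, a pseudocount of 64 or 1, no filter, Present on at least 12 arrays, array weights, 1 probe set a gene, hybridization controls, the Actb 3′ to 5′ ratio or the brain marker mean as a covariate, no 4 arrays of lowest control signal, no sex term, a replicate block, the chow arrays alone, or left out each of the 12 arrays in turn. Counts of list members under some of these were added after seeing the data. Promoters are RefSeq windows, the first listed for a gene. Python 3.11.15, pandas 2.3.3, numpy 2.4.6 and matplotlib 3.10.9 made the tables and figures.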

Additional observations from a re-analysis of the deposited data

Results flagged for a closer look

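In 9 cases the highest or lowest of 6 arrays stood far from the other 5 by Dixon's test at 95%, which chance alone gives in about 1 of 20 groups. Whether the 9 cases are more than chance gives was not tested. Among genes called on chow, Gm9706 read 9.5 on ApoE3 array 3, Zfp386 700.9 on ApoE3 array 5, Lss 826.2 on ApoE3 array 2 and Psmd6 3940.8 on ApoE3 array 3. In ApoE4, Dok2 read 143.8 and Gnrhr 116.7 on array 5, Ccl12 49.5 on array 1 and Aph1a 758.7 on array 4. The iron storage gene Fth1, which was not called, read 8935.0 on ApoE4 array 4. The high ApoE4 values of Dok2 and Gnrhr came from the same array, 1 of the 2 chow arrays of lowest hybridization control signal.

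The genotype effect differed between the sexes for 2 genes by the limma test of that difference. Female minus male it was 1.181 on the log2 scale for Tcl1b3 and 1.502 for Cry1 (adjusted p = 0.0372 for both), with 3 arrays for each sex and genotype.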

How the results depend on the processing

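Of the 106 named genes called on chow, 33 were called in each of the 26 other fits, among them Ifit1, Usp18, Asns, Bst2, Irf7, Wdfy1, Zfp386 and Stab1, and Cd163 and Clec4d were called in the 25 that tested them. Over all named genes and fits 515 results lost the threshold, 13 gained it and 0 reversed. The count of 1428 probe sets became 595 with the brain marker covariate, 2308 with the hybridization control covariate, 908 in the fit of the 12 chow arrays and 805 with 1 probe set a gene, where fewer features were tested. It ran from 800 to 1908 with 1 array left out (942 without ApoE3 array 1, and 887, 857 and 800 without ApoE4 array 1, 2 or 4). Quantile normalization turned the split of 619 higher and 809 lower into 661 and 500 and moved the median of all probe sets from -0.023 to 0.0094, and no filter gave 625 and 1145. The count of sex differences, 2 with a more positive effect in females, became 1 of the other direction without a filter, so that neither was called, 1 with array weights or with the hybridization control covariate, and 0 without the 4 arrays of lowest control signal or with the 12 chow arrays alone. The count of 0 diet differences became 1 without those 4 arrays. The cause of these changes was not tested. Same-numbered arrays of the 2 chow groups had deviations from their group and sex means with correlations of -0.039 to 0.125 over replicates 1 to 6. Arrays of different number were not compared, so these values cannot exclude that the numbers pair samples. The replicate block gave 1464 probe sets in place of 1428. For dim genes, Absent on most arrays of a group, signal over background limits the fold.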

Other observations

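Some called genes outside the lists had small p-values or large changes too, and are named after their values were seen. Cdca7l was Absent on all 6 ApoE3 arrays and lay above them on all 6 ApoE4 arrays (at least 1.88-fold, adjusted p = 1.87e-05), and was at 0.50 ± 0.11 on the high-fat diet. Med22, a subunit of the Mediator complex, was Absent in ApoE3 as well (at least 2.0-fold, with overlapping groups, adjusted p = 0.00693). Ogfr, the opioid growth factor receptor, rose by 0.67 ± 0.10 without overlap, and so did Pon3, a paraoxonase, by 0.37 ± 0.063. Cox6b2, a testis form of a cytochrome oxidase subunit, rose by 0.48 ± 0.079 without overlap (adjusted p = 0.000627), and was at 0.057 ± 0.082 on the high-fat diet (adjusted p = 0.631). Its difference between the diets was not called (adjusted p = 0.228). Among falls, Lce1i (-0.50 ± 0.07), Adcy3, an adenylyl cyclase of cilia (-0.62 ± 0.11), Mxd3 (-0.75 ± 0.13) and Ffar2, a receptor for short-chain fatty acids (-0.80 ± 0.14), lay below ApoE3 on every ApoE4 array.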
